A study of Sus scrofa with 10 samples.

Results

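Nuclear receptors and liver transcription factors were described through 15 of the 23999 porcine probe sets on the array, which stand for 9 of the 6765 genes that the array reads under a symbol of their own. A probe set is a group of short probes whose combined brightness reports 1 transcript. Every probe set was taken whose platform annotation gives HNF4A, NR1H3, NR1I2, NR1I3, RXRA, RXRB, PPARA, PPARGC1A, CEBPD or CEBPB as its only gene symbol. Of the 10 genes, only NR1I3 (the constitutive androstane receptor, CAR) had no such probe set. CEBPD had 3 probe sets, HNF4A, NR1I2, RXRA and PPARA had 2 each, and NR1H3, RXRB, PPARGC1A and CEBPB had 1 each.

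The liver of 10 female backcross pigs of Iberian and Landrace origin, reared and fed alike, was profiled on Affymetrix GeneChip Porcine arrays with 1 array for each pig. The pigs lay at the ends of the first principal component of a set of traits, most of them muscle fatty acids and their indices and a few of them carcass traits. The 5 animals called H had relatively more polyunsaturated fatty acids in muscle, and the 5 animals called L had more saturated and monounsaturated ones. No animal was treated, and H and L differ by this ranking, not by a treatment or a known genotype.

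Nuclear receptors are transcription factors that are switched by small lipophilic ligands such as fatty acids, oxysterols, bile acids and drugs. Many of them bind DNA as a pair with a retinoid X receptor (RXR) and recruit coactivators such as PGC-1α, the product of PPARGC1A. In hepatocytes they act beside HNF4A, which maintains hepatocyte gene expression, and the C/EBP factors, which are known for metabolic and acute phase genes.

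The values are log2 intensities after background adjustment and normalization by GCRMA, with a lowest value of 2.19 on the arrays. A probe set within 0.5 of that value is called near the floor here, where a value is only an upper bound on the signal and differences are understated. Of all porcine probe sets, 9487 (39.5%) lay near the floor on all 10 arrays. The liver label was checked against hepatocyte markers, of which 11 of 12 listed genes had a probe set and all 11 were well above the floor with means of 4 or more, while the 5 skeletal muscle and 4 neutrophil marker genes with a probe set were all near the floor. Array medians ranged from 3.77 to 3.84. In bulk tissue fewer cells of a type and less RNA per cell cannot be told apart.

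Of the 15 probe sets, 4 (26.7%) lay near the floor on all 10 arrays, and they belonged to RXRA, PPARA and NR1I2. RXRA codes for the main RXR partner of liver receptors. Both RXRA probe sets, Ssc.15990.1.A1_at and Ssc.15990.1.S1_at, stood at exactly 2.19 on each of the 10 arrays. They derive from the same source sequence in the annotation, so they are not independent readings of the gene. No difference in RXRA between H and L could be measured on these arrays.

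PPARA codes for the fatty acid receptor PPARα, known for driving fatty acid oxidation in liver, and its probe sets also share 1 source sequence. Ssc.15874.1.S1_at read 2.20 on all 10 arrays. Ssc.15874.1.A1_at read 2.28, 3.60, 3.24, 2.19 and 2.55 in H1 to H5, and 2.93, 2.55, 2.55, 2.55 and 2.54 in L1 to L5. It lay near the floor on 7 arrays and lay above that zone only in H2, H3 and L1. The values of H5, L2, L3 and L4 were identical to the last deposited digit, so the order of these 4 animals carries no information. The H mean was 2.77 ± 0.62 and the L mean 2.62 ± 0.17 (SD, n = 5), and the groups overlapped. With a mean under 4, neither PPARA probe set entered the test.

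The NR1I2 probe sets behaved differently from each other. NR1I2 codes for the pregnane X receptor (PXR), a sensor of drugs and bile acids that induces cytochrome P450 genes. Ssc.15842.1.A1_at stood at 2.19 on all 10 arrays, while Ssc.15842.1.S1_at, which was designed on another source sequence, read between 5.69 and 6.71. Results on NR1I2 therefore rest on Ssc.15842.1.S1_at alone.

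**Figure D1:**
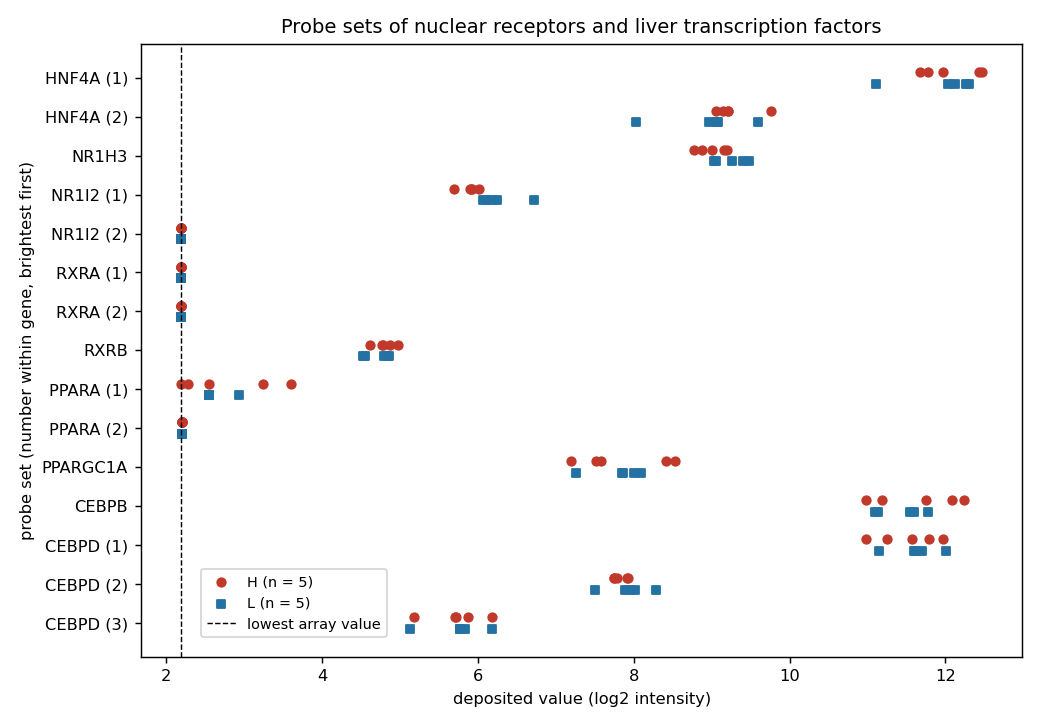
Log2 intensity (x axis) of the 15 probe sets (rows, numbered within a gene from the highest mean down) in the 5 H animals (red circles) and 5 L animals (blue squares), with the lowest array value of 2.19 as a dashed line. RXRA, PPARA (2) and NR1I2 (2) sit on or beside that line, PPARA (1) is spread just above it, and the other 10 probe sets lie clear of it.

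The other 10 probe sets, of 7 genes, reached a mean of 4 and entered a limma test of H against L over 11756 probe sets. No probe set of any gene passed an adjusted p of 0.05 (0% of 11756), and the smallest adjusted p was 0.991. At an unadjusted p under 0.05 limma listed 1 of the 10 probe sets (NR1I2, lower in H), beside 3.09% (363) of all tested, or 1.77% counting only those lower in H. Of the 10 probe sets, 5 had a higher mean in H and 5 a lower mean in H. The median difference, H minus L on the log2 scale, was 0.01, beside -0.02 over all tested, and the median size of the difference was 0.10, the same as over all tested.

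The difference furthest from 0 was that of NR1I2. Its probe set Ssc.15842.1.S1_at read 5.92, 5.91, 5.89, 5.69 and 6.02 in H1 to H5, and 6.25, 6.19, 6.10, 6.71 and 6.06 in L1 to L5. All H animals lay below all L animals, but the highest H animal (H5) and the lowest L animal (L5) were only 0.05 apart. The H mean was 5.89 ± 0.12 and the L mean 6.26 ± 0.26 (SD, n = 5), a difference of -0.38 with a limma standard error of 0.13, or 1.30-fold lower in H. The 95% interval ran from -0.66 to -0.09. The unadjusted limma p was 0.0144 and the adjusted p 0.991, so the difference did not pass the test. An exact two-sided permutation test of this probe set gave p = 0.00794 before any correction. This is the smallest p that 5 against 5 animals can give, and it follows from the lack of overlap, so it adds no further evidence. No probe set passed the permutation test after adjustment. NR1I2 was the 1 probe set of the 10 without overlap between the groups, which 48 (0.408%) of all tested shared, 26 of them (0.221%) with H below L. L4 stood above the other animals, and without it the difference was -0.26.

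Other readouts of PXR were examined through a list of genes known as targets of PXR and of CAR. Of 20 listed genes 16 had a probe set and 15 were tested, of which 4 had a higher and 11 a lower mean in H, and none reached an unadjusted p under 0.05 in limma, where 2.77% of 4730 genes did. The median difference of this list was -0.13, beside -0.05 over all genes. CYP3A29 is a pig cytochrome of the CYP3A family that PXR is known to induce. It had an H mean of 14.01 ± 0.49 and an L mean of 13.87 ± 0.72 (SD, n = 5), a difference in the other direction from that of NR1I2. Over the 10 animals the correlation of NR1I2 with CYP3A29 was r = 0.0718 (permutation p = 0.852, Spearman's rho = -0.139). Without H4 and L4, the animals farthest from the median of NR1I2, r was 0.281. CYP2B22, the pig gene of the CYP2B family, had a mean under 4, and pairs with NR1I3 could not be formed.

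Because bulk liver holds several cell types, the marker lists are given beside the NR1I2 values. Of the 11 tested hepatocyte markers, 10 had a lower mean in H, with a median difference of -0.07 beside -0.05 over all genes. The summed level of a list is the log2 of its summed unlogged intensities, so its brightest genes weigh most. For the hepatocyte list it was 18.48 to 18.66 in the H animals and 18.58 to 18.68 in the L animals. Several hepatocyte markers lay near the upper end of the arrays, where differences may be understated. Of 6 tested Kupffer cell and macrophage markers, 5 had a lower mean in H, with a median difference of -0.21 and summed levels of 12.28 to 12.90 in H and 12.42 to 13.03 in L. All 4 tested endothelial markers were lower in H by the mean (median -0.08, summed levels 10.83 to 11.33 in H and 10.86 to 11.50 in L), as were both tested T and NK cell markers (median -0.23, 5.91 to 6.14 in H and 5.73 to 6.86 in L), while 5 of the 9 T and NK cell markers with a probe set lay near the floor. Of 3 tested B and plasma cell markers 2 were lower by the mean (median -0.23, 12.28 to 12.71 in H and 12.18 to 12.74 in L). The third, XBP1, was higher in H by 0.11 and, as the brightest (mean 12.08), weighs most in this sum. XBP1 is also on the list of other liver transcription factors, so this sum says little about B and plasma cells. By contrast with most of these lists, 5 of 6 stellate cell and fibroblast markers had a higher mean in H (median 0.06, 11.05 to 11.55 in H and 10.77 to 11.72 in L). Both tested erythroid markers were higher in H as well (median 0.16, 8.70 to 9.54 in H and 8.78 to 9.21 in L). The 2 tested cholangiocyte markers were split (median 0.09, 8.03 to 8.94 in H and 8.16 to 8.52 in L), with 3 of 6 near the floor, and no adipocyte marker was tested. The summed levels of H and L overlapped in each of these lists, and no marker reached an unadjusted p under 0.05 in limma. The part of these cell types in the NR1I2 difference was not tested.

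NR1H3 codes for the liver X receptor LXRα, an oxysterol receptor known for raising cholesterol efflux and lipogenic genes. Its probe set Ssc.16354.1.S1_at read 8.88, 9.20, 8.999, 8.77 and 9.16 in H1 to H5, and 9.03, 9.06, 9.40, 9.47 and 9.27 in L1 to L5. L3, L4 and L5 lay above all H animals, while L1 and L2 lay within the H range. The H mean was 9.002 ± 0.18 and the L mean 9.25 ± 0.20 (SD, n = 5), a difference of -0.24 with a standard error of 0.12 and a 95% interval from -0.51 to 0.02. The limma p was 0.0686 unadjusted and 0.991 adjusted. Leaving out H2, L1 or L2 brought the unadjusted limma p to 0.0412, 0.0383 and 0.0457, and leaving out any other animal did not bring it under 0.05.

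Of 15 LXR target genes listed, 8 were tested, 4 with a higher and 4 with a lower mean in H, a median difference of 0.01, and none at an unadjusted p under 0.05 in limma. A further 3 of the listed genes lay near the floor on all arrays, among them SREBF1, the lipogenic factor that LXRα is known to induce. ABCG8, a sterol exporter of the canalicular membrane and a known LXR target, had r = -0.231 with NR1H3 over the 10 animals (permutation p = 0.521, rho = -0.438). Without H4 and L4 r was -0.289. ABCG8 read the identical value of 9.92 in H1, H3, H5 and L5, which limits any order among these animals.

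RXRB, another RXR partner of these receptors, was read clear of the floor by Ssc.1598.1.S1_at, with values of 4.97, 4.77, 4.78, 4.62 and 4.87 in H1 to H5 and 4.85, 4.52, 4.55, 4.79 and 4.84 in L1 to L5. The groups overlapped, with the highest animal in H and the lowest in L. The H mean was 4.80 ± 0.13 and the L mean 4.71 ± 0.16 (SD, n = 5), a difference of 0.09 with a 95% interval from -0.13 to 0.31. It was 0.04 without L2 and 0.14 without H4. RXRB had the smallest SD between animals of the 10 probe sets, an SD within groups of 0.15, at percentile 19.5 of all tested probe sets. It also had the lowest mean of the 10, 4.76, where differences may be understated, and the percentile is not matched for level.

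**Figure D2:**
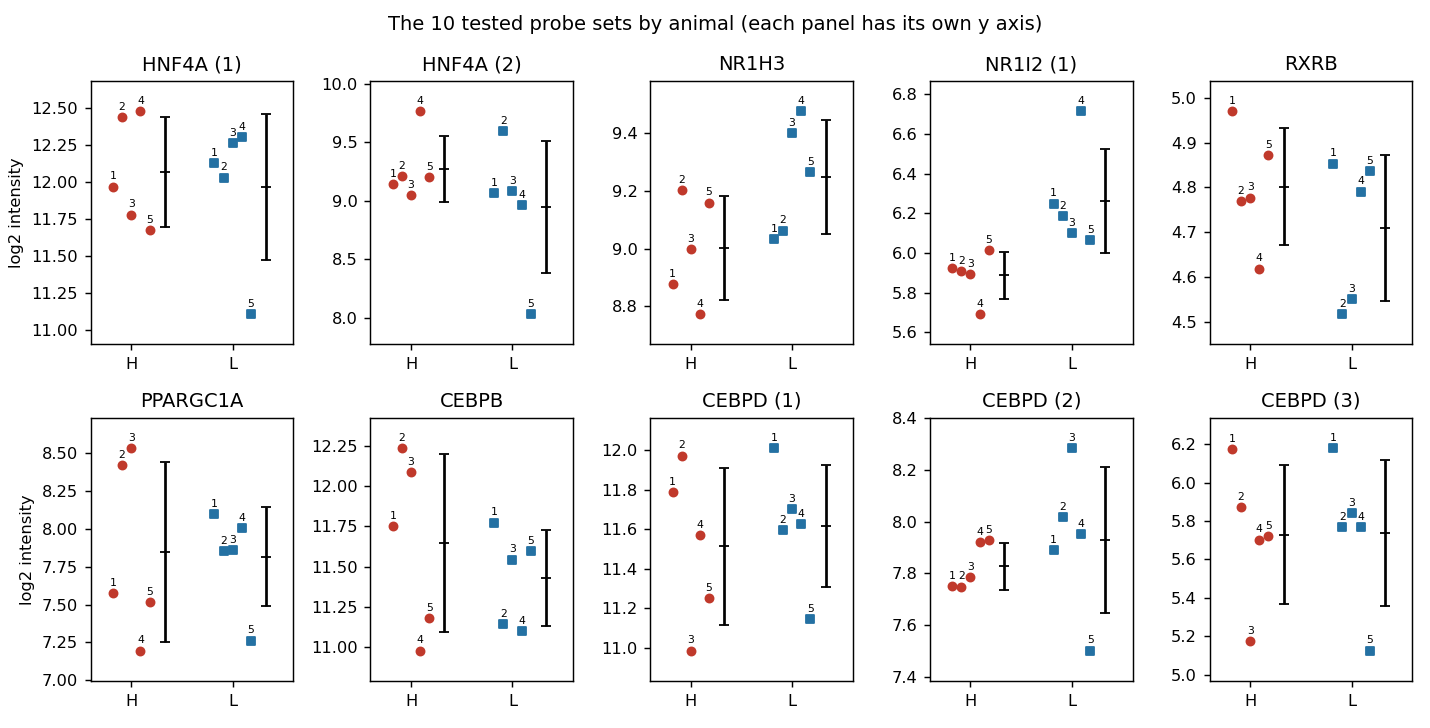
Log2 intensity (y axis, its own range in each panel) of the 10 tested probe sets in H (red circles) and L (blue squares), with the animal number above each point and a black bar for the mean ± SD (n = 5 each). Only in NR1I2 (1) do the groups not overlap, and L5 is the lowest animal in both HNF4A panels.

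HNF4A was read by a pair of probe sets. Ssc.19208.1.S1_at read 11.97, 12.44, 11.78, 12.48 and 11.67 in H1 to H5, and 12.13, 12.03, 12.26, 12.30 and 11.11 in L1 to L5. Ssc.19208.2.S1_at read 9.14, 9.21, 9.05, 9.76 and 9.20 in H1 to H5, and 9.07, 9.60, 9.08, 8.96 and 8.03 in L1 to L5. On both probe sets H4 was the highest and L5 the lowest animal. The differences between H and L were 0.10 (95% interval -0.46 to 0.66) and 0.33 (-0.25 to 0.90), with unadjusted limma p of 0.698 and 0.232 and an adjusted p of 0.991 for both. The groups overlapped on both. L5 set much of these values, since without it the differences were -0.11 and 0.10, and without H5 that of Ssc.19208.1.S1_at was 0.20.

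The HNF4A probe sets followed each other over the animals with r = 0.736 (permutation p = 0.0268, adjusted 0.0536 over the 4 pairs of probe sets of 1 gene), but with rho = 0.455 (permutation p = 0.192). Without H5 and L5 r was 0.312, and without L5 alone it was 0.272. The relation therefore rested on L5. Their SDs within groups, 0.44 and 0.45, lay at percentiles 85.6 and 86.6 of all tested probe sets.

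Among genes known as HNF4A targets, 14 of 24 were tested, with 6 higher and 8 lower means in H, a median difference of -0.02, and none at an unadjusted p under 0.05 in limma. TTR, the thyroxine carrier transthyretin, had r = -0.0952 with HNF4A (permutation p = 0.808, rho = 0.0788, and r = 0.309 without H5 and L5). CYP7A1, which starts bile acid synthesis from cholesterol, ranged from 2.19 in H4 and L4 to 9.51 in H1, and L1 and L3 were also near the floor. Its correlation with HNF4A was r = -0.565 (permutation p = 0.0811, adjusted 0.270 over 10 pairs) with rho = -0.612, and r was -0.711 without H5 and L5. The 4 animals with CYP7A1 near the floor were among the 5 highest for HNF4A on its probe set of highest mean. The relation did not pass the test. On the other HNF4A probe set H4 was again the highest (9.76). There L1, L3 and L4 (9.07, 9.08 and 8.96) lay below H1, H2, H5 and L2 (9.14, 9.21, 9.20 and 9.60). With each gene taken as the mean over its probe sets, r was -0.401 (adjusted permutation p = 0.673). HNF4A and NR1I2, whose gene HNF4A is known to activate, had r = 0.0457 (permutation p = 0.892, rho = -0.0545, and r = 0.00998 without H5 and L5).

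CEBPD and CEBPB code for C/EBPδ and C/EBPβ, which rise in the acute phase response, and C/EBPβ also acts on gluconeogenic genes. CEBPB, by Ssc.9738.1.A1_at, read 11.75, 12.23, 12.08, 10.98 and 11.18 in H1 to H5, and 11.77, 11.14, 11.54, 11.10 and 11.60 in L1 to L5. The H animals held both the highest values (H2, H3) and the lowest (H4), so the L range lay inside the H range. The H mean was 11.65 ± 0.55 and the L mean 11.43 ± 0.30 (SD, n = 5), a difference of 0.22 with a 95% interval from -0.35 to 0.78. Its unadjusted limma p was 0.415. Single animals moved the difference, to 0.07 without H2 and to 0.38 without H4.

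The 3 CEBPD probe sets derive from different source sequences. Ssc.10025.3.S1_at read 11.79, 11.97, 10.99, 11.57 and 11.25 in H1 to H5, and 12.01, 11.59, 11.70, 11.63 and 11.15 in L1 to L5. Ssc.10025.2.S1_at read 6.18, 5.87, 5.17, 5.70 and 5.72 in H1 to H5, and 6.18, 5.77, 5.84, 5.77 and 5.13 in L1 to L5. H1, H2 and L1 were the 3 highest and H3 and L5 the 2 lowest on both. The values of Ssc.10025.1.S1_at ran from 7.50 in L5 to 8.28 in L3, and here H1 and H2 were among the low animals.

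The differences of the 3 CEBPD probe sets were -0.10 (95% interval -0.57 to 0.36) for Ssc.10025.3.S1_at, -0.10 (-0.39 to 0.19) for Ssc.10025.1.S1_at and -0.01 (-0.49 to 0.47) for Ssc.10025.2.S1_at. The groups overlapped on all 3. Without H3 the differences of Ssc.10025.3.S1_at and Ssc.10025.2.S1_at became 0.03 and 0.13, and without L5 they became -0.22 and -0.16. That of Ssc.10025.1.S1_at ran from -0.21 without L5 to -0.01 without L3. On Ssc.10025.3.S1_at the interval spanned 0.676-fold to 1.28-fold of the L level.

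Ssc.10025.3.S1_at and Ssc.10025.2.S1_at gave nearly the same order of animals, with r = 0.884 (permutation p = 0.00068, adjusted 0.00272) and rho = 0.960 (adjusted p = 0.00016), and r was 0.704 without H3 and L5. Ssc.10025.1.S1_at did not pass with either of them, with r = 0.291 (permutation p = 0.423, rho = 0.0424) against Ssc.10025.3.S1_at and r = 0.399 (permutation p = 0.257, rho = 0.109) against Ssc.10025.2.S1_at. Statements on CEBPD over animals thus depend on the probe set, and those below use Ssc.10025.3.S1_at, which had the highest mean.

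**Figure D3:**
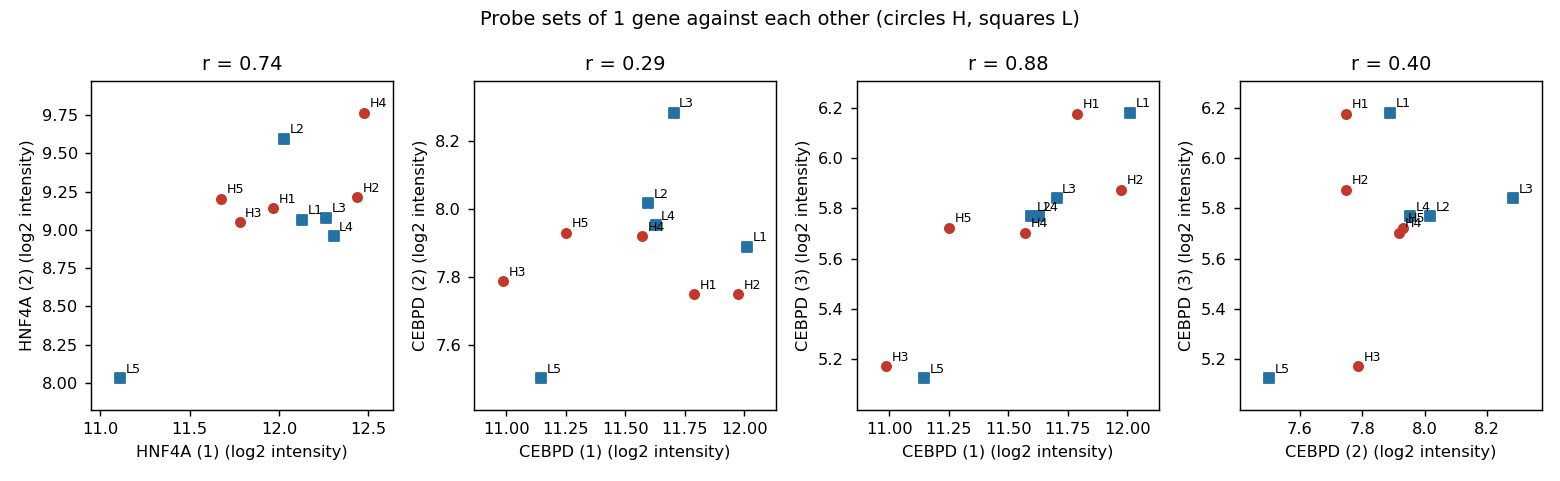
Log2 intensity of 1 probe set (x axis) against another of the same gene (y axis) in the 10 animals, for HNF4A and for the 3 pairs of CEBPD probe sets, with the Pearson r above each panel. CEBPD (1) and (3), numbered from the highest mean down, lie along a line with r = 0.88, and the HNF4A panel is drawn out by L5.

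Of 26 listed C/EBP targets and acute phase genes 18 were tested, with 5 higher and 13 lower means in H, a median difference of -0.08 beside -0.05 over all genes, and none at an unadjusted p under 0.05 in limma. FGB, the fibrinogen beta chain, did not pass with CEBPB (r = -0.183, permutation p = 0.620, rho = -0.182, and r = 0.222 without H2 and H4). ORM1, an acid glycoprotein of the acute phase, did not pass with CEBPD over the 10 animals (r = -0.167, permutation p = 0.638, rho = -0.164), although r was 0.682 once H3 and L5 were left out. CEBPB against CEBPD did not pass either (r = 0.125, permutation p = 0.726, rho = 0.273, and r = -0.142 without H2 and H4).

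PPARGC1A, the fasting-induced coactivator of gluconeogenesis and mitochondrial genes, had the largest SD within groups of the 10 probe sets. This SD was 0.48, at percentile 88.6 of all tested. Ssc.16864.1.S1_at read 7.58, 8.42, 8.53, 7.20 and 7.52 in H1 to H5, and 8.10, 7.85, 7.86, 8.005 and 7.26 in L1 to L5. The lowest and the highest animal, H4 and H3, were both H animals. They lay 2.53-fold apart, less than the 2.58-fold and 3.32-fold ranges of the HNF4A probe sets. The means were nearly equal, 7.85 ± 0.59 for H and 7.82 ± 0.33 for L (SD, n = 5), a difference of 0.03 with a 95% interval from -0.58 to 0.64. Its sign depended on single animals, being -0.14 without H3 and 0.20 without H4.

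Genes that PGC-1α is known to raise were tested for 12 of 20 listed genes, with 5 higher and 7 lower means in H, a median difference of -0.04, and none at an unadjusted p under 0.05 in limma. PCK1, which commits carbon to gluconeogenesis, read 13.42, 14.01, 13.82, 12.40 and 13.25 in H1 to H5, and 13.65, 13.13, 13.05, 13.28 and 13.60 in L1 to L5. H2 and H3 were the highest and H4 the lowest for both PCK1 and PPARGC1A. The correlation was r = 0.676 (permutation p = 0.0296, adjusted 0.148 over 10 pairs) with rho = 0.661 (permutation p = 0.0443, adjusted 0.299). It was r = 0.396 without H3 and H4, the animals farthest from the PPARGC1A median, whose removal also narrows the range. Of single animals, leaving out H4 lowered it most, to r = 0.529. Without L5, which had a low PPARGC1A and a high PCK1, r was 0.858.

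LPIN1, a phosphatidate phosphatase that also works with PGC-1α as a coactivator, read 7.70, 9.003, 9.19, 7.03 and 7.18 in H1 to H5, and 8.25, 8.22, 6.17, 7.02 and 7.13 in L1 to L5. H2 and H3 were again the highest. Its correlation with PPARGC1A was r = 0.696 (permutation p = 0.0273, adjusted 0.148) with rho = 0.576 (permutation p = 0.0897), and r was 0.544 without H3 and H4. Without L3, the animal with the lowest LPIN1, r was 0.852 with an adjusted permutation p of 0.0433. With the group means taken out, r was 0.675 for PCK1 and 0.732 for LPIN1, each with an adjusted permutation p of 0.144.

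Of the 18 regulator and partner pairs listed, 10 could be computed, because pairs with RXRA, PPARA or NR1I3 have no measured level on 1 side. None of the 10 passed an adjusted permutation p of 0.05 by r or by rho over all 10 animals, and PPARGC1A with PCK1 and with LPIN1 were the 2 with an unadjusted p under 0.05 for r. CPT1A, a known target of PPARα, was therefore not set against its receptor. Of 27 listed PPARα targets, 19 were tested, with 7 higher and 12 lower means in H, a median difference of -0.10 and none at an unadjusted p under 0.05 in limma. CPT1A, the entry step of mitochondrial fatty acid oxidation, had an H mean of 11.88 ± 0.76 and an L mean of 12.16 ± 0.51 (SD, n = 5).

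Between the 7 tested genes themselves there were 21 pairs, a set chosen after the values were seen, and none passed an adjusted permutation p of 0.05. An unadjusted p under 0.05 for r was found for 3 of them. NR1H3 and NR1I2 had r = 0.705 (permutation p = 0.0200, adjusted 0.235, rho = 0.612), which was 0.180 without H4 and L4 and 0.503 with the group means taken out. HNF4A and CEBPD had r = 0.700 (permutation p = 0.0224, adjusted 0.235, rho = 0.527), and 0.537 without H5 and L5. PPARGC1A and CEBPB, which both act on PCK1, had r = 0.657 (permutation p = 0.0421, adjusted 0.295, rho = 0.648), and 0.414 without H3 and H4.

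**Figure D4:**
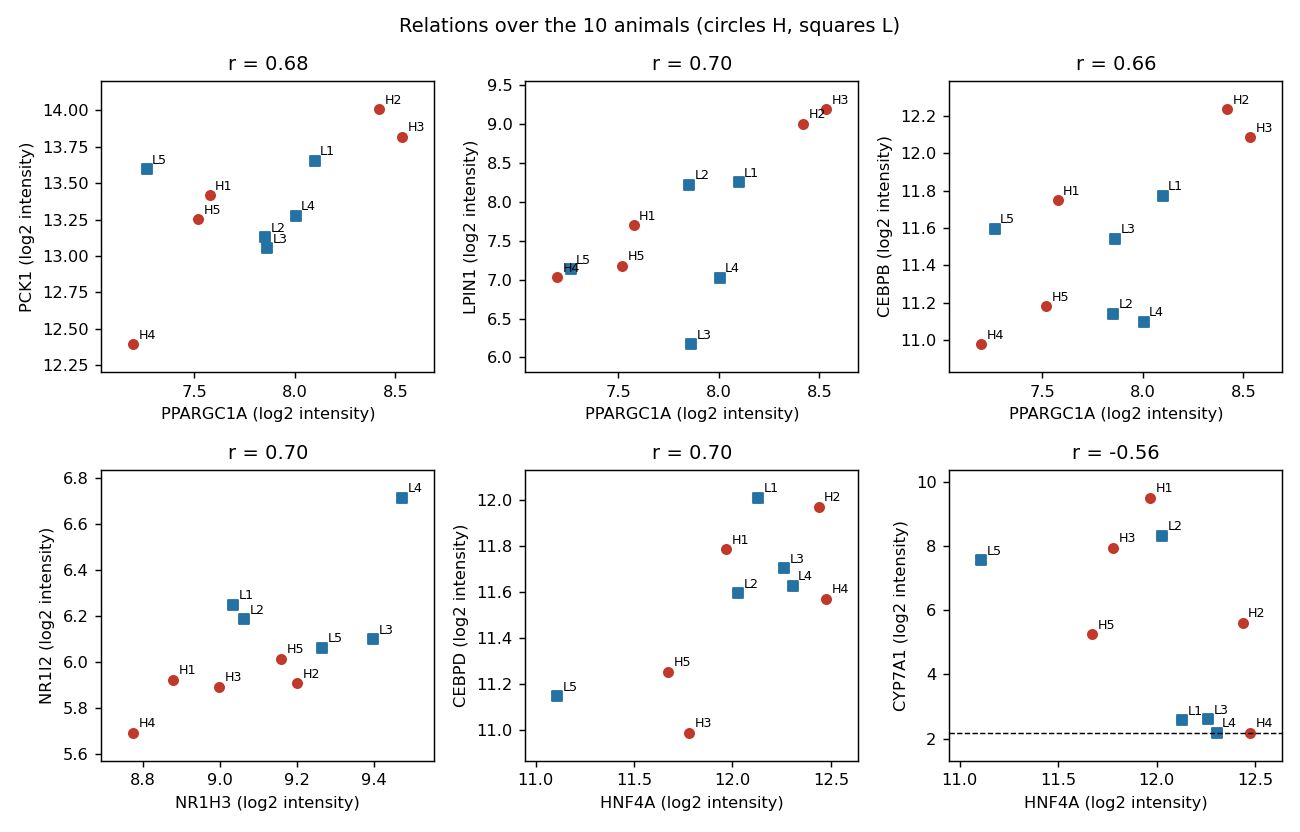
Log2 intensity of pairs of genes in the 10 animals (circles H, squares L), each gene by its probe set of highest mean, with the Pearson r above each panel and the lowest array value as a dashed line in the CYP7A1 panel. PPARGC1A is set against PCK1, LPIN1 and CEBPB, where H2 and H3 are high on both axes, and NR1H3 against NR1I2, where H4 and L4 are the ends.

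Single animals recurred at the ends of these ranges. H4 had the lowest value of NR1H3, NR1I2, PPARGC1A and CEBPB, that is in 4 of the 7 tested genes, and the highest value of HNF4A. How often H4 was the lowest over all tested genes was not counted, so this is not shown to be particular to the regulators. L4 had the highest value of NR1H3 and NR1I2, and L5 the lowest of HNF4A. The difference of the GAPDH control probe sets from the 3′ and the 5′ end of the transcript is a measure of RNA integrity. It averaged 1.96 ± 0.28 for H and 1.99 ± 0.42 for L (SD, n = 5). With 1.86, H4 and L4 lay inside the range of 1.68 to 2.70, so the 3′ end read higher on every array. Limma's array weights were 0.778 for H4 and 0.895 for L4, over a range from 0.716 (L3) to 1.425 (H5). The part of RNA quality in these values was not tested.

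Over the 10 tested probe sets the median SD within groups was 0.36, beside 0.24 over all 11756, and 6 of the 10 lay above the latter. CEBPB was at percentile 86.1, PPARGC1A at 88.6 and HNF4A at 85.6 and 86.6, CEBPD ranged from percentile 41.3 to 78.8, and NR1H3, NR1I2 and RXRB were at percentiles 33.7, 39.0 and 19.5. The intervals of the difference between H and L were accordingly widest for HNF4A, PPARGC1A and CEBPB and narrowest for RXRB.

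**Figure D5:**
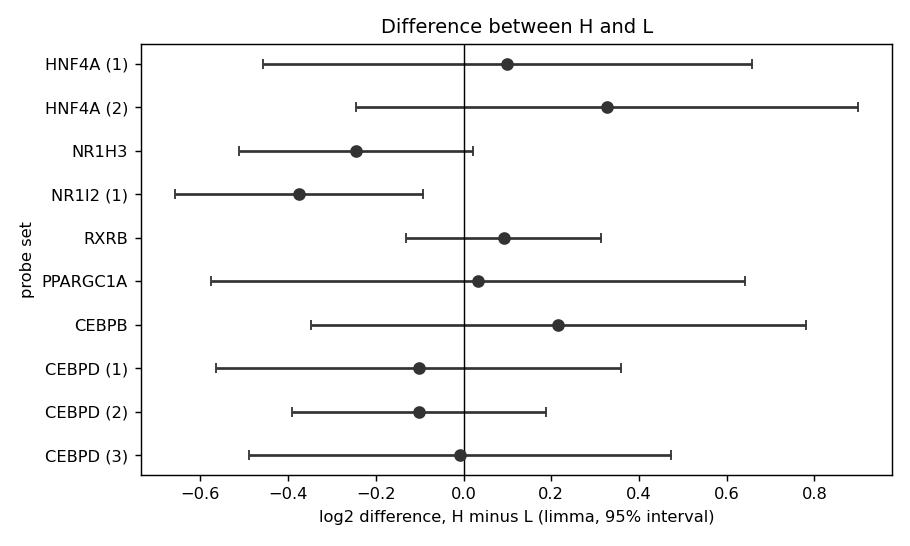
Log2 difference of H minus L (x axis) with its 95% limma interval for the 10 tested probe sets (rows), and a vertical line at 0. The interval of NR1I2 (1), -0.66 to -0.09, is the only one that does not reach 0, before any correction for the number of tests.

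Other members of the same regulator classes were read in the same way. Of 33 other nuclear receptor genes listed, 16 had a probe set, 8 were tested and 5 lay near the floor on all arrays (PPARG, RXRG, RARA, RARB and ESR1). Of the 8 tested, 4 had a higher and 4 a lower mean in H, with a median difference of -0.02, and none reached an unadjusted p under 0.05 in limma. Of 34 other liver transcription factors 19 were tested, 10 higher and 9 lower in H by the mean, and of 20 coregulators 8 were tested, 4 higher and 4 lower, again with none at an unadjusted p under 0.05. CEBPA, another C/EBP gene of hepatocytes, had an H mean of 5.51 ± 0.28 and an L mean of 5.72 ± 0.47 (SD, n = 5).

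The genes with the pattern most like each regulator over the 10 animals were taken as the 3 of highest Pearson r among 4723 other genes, given as a description without a test, since the highest of so many values over 10 animals is large without any relation. For HNF4A these were EEF1E1 (r = 0.986), GPATCH4 (r = 0.980) and FKBP5 (r = 0.968), all lowest in L5 and highest in H4. FKBP5, a cochaperone of the glucocorticoid receptor, ran from 7.94 in L5 to 11.59 in H4. NR1H3 was most like LOC100513601 (r = 0.987), PSMC3 (r = 0.939) and PQBP1 (r = 0.918), all highest in L4. LOC100513601 is a swine MHC class I gene, whose probe set may also read its near-identical relatives. PSMC3, a proteasome subunit, lies on the chromosome of NR1H3 in the Sscrofa11.1 gene table, with 4 protein-coding genes between them (SLC39A13, SPI1, MYBPC3 and MADD), and none of the other named genes shares a chromosome with its regulator.

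NR1I2 was most like HDGFL2, LONP2 and MPP1 (r = 0.919, 0.919 and 0.916), each highest in L4. RXRB was most like RRM2B, CPNE1 and EIF2B1 (r = 0.874, 0.856 and 0.844), which were all lowest in L3 and highest in H1. PPARGC1A was most like GLT8D1, BTG2 and ING3 (r = 0.925, 0.916 and 0.860), each highest in H2. CEBPD was most like ZCCHC24, BAZ1A and ID1 (r = 0.935, 0.901 and 0.883). CEBPB was most like MRPS17, SLC38A9 and NFIL3 (r = 0.946, 0.923 and 0.922). NFIL3, itself a liver transcription factor of the basic leucine zipper class, ran from 8.56 in H5 to 10.13 in H2.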

How the data were processed

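Liver RNA of 10 females was hybridised to Affymetrix GeneChip Porcine arrays, 1 per animal. The authors scanned with GCOS and used GCRMA for background and normalization, and the submitters' notes also name RMA, with versions not given in the sources used here. In the deposited table there are log2 values for 24123 probe sets, of which 124 controls were left out. Of the other 23999, 10069 had 1 gene symbol in the platform annotation, 198 several and 13732 none.

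The difference between H and L was tested in R 4.3.3 by limma 3.58.1, with lmFit, eBayes and a two-sided p, and without covariates, over the 11756 probe sets whose mean reached 4, with Benjamini-Hochberg adjustment over all of them and a threshold of 0.05. Differences are H minus L with limma's moderated standard error. The fit was tested on simulated data. A gene with several probe sets was represented by the one of highest mean. Correlations over animals used permutation tests of 100000 resamples (two-sided, Python 3.11.15, numpy 2.4.6, pandas 2.3.3, scipy 1.17.1), adjusted within each family, and r was repeated without the 2 animals farthest from the median on the x axis. Figures used matplotlib 3.10.9. Named genes were all probe sets of the 10 regulators, the genes of the listed pairs, the 3 genes of highest r to each regulator and, from each list, up to 4 genes at an unadjusted p under 0.05, of which there were none. PPARG, RXRG, RARA, RARB, ESR1, SREBF1, CEBPA and XBP1, and the genes between NR1H3 and PSMC3, fall outside this rule and were chosen after their values or positions were seen.

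The regulators, lists and pairs were chosen with earlier results of these data known. Alternatives were other filters on low values, quantile or median scaling, limma's array weights, GAPDH 3′ minus 5′ as a covariate, another prior, the exact permutation test, 1 value per gene, the animal number as a block, and leaving out each animal in turn. A difference was counted as turned when its sign changed and it was larger than its standard error in either fit. The study kept sibs in opposite groups, but the sources used here do not say which animals are related, so kinship was not modelled. The number of arrays limits the precision. The Sscrofa11.1 gene table was used only for which genes share a chromosome and lie between each other. Probe sequences were not used here, and no coordinates are given.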

Additional observations from a re-analysis of the deposited data

Results flagged for a closer look

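Within a group of 5, an animal was marked when its gap to the nearest other animal exceeded 0.71 of the range of the group, and chance marks about 1 in 20 groups. Of 22 groups of probe sets that vary, 4 were marked. For HNF4A Ssc.19208.1.S1_at, L5 was the lowest of the L animals with 0.769 of the range. For HNF4A Ssc.19208.2.S1_at, H4 was the highest of the H animals with 0.773. For NR1I2 Ssc.15842.1.S1_at, L4 was the highest of the L animals with 0.715. For PPARA Ssc.15874.1.A1_at, L1 was the highest of the L animals with 0.979, where 3 of the other 4 shared 1 identical value near the floor.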

How the results depend on the processing

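No probe set of the regulators and none of all tested was called under any of the 21 alternatives, and 4 probe sets stayed near the floor with a margin of 0.25 or 1 and without any animal. The NR1I2 difference ranged from -0.42 to -0.26 without single animals and from -0.38 to -0.34 under the other settings, with an unadjusted limma p between 0.0109 and 0.0484. The latter came from the fit with the animal number as a replicate block, which called 0 probe sets. The labels do not say that a number pairs animals, and the correlation of same-numbered animals was over 0.1 for 2 of the 5 numbers only (-0.22 to 0.39), so the block was not used elsewhere. Of the relations with targets, 0 to 1 passed without single animals. These were PPARGC1A with PCK1 without L5 (r = 0.858, adjusted permutation p = 0.0333) and PPARGC1A with LPIN1 without L3 (r = 0.852, adjusted permutation p = 0.0433). HNF4A with TTR turned from r = -0.0952 to 0.435 without L5 (range -0.27 to 0.435 without single animals). With group means taken out, 2 of the 4 pairs of probe sets of 1 gene passed in place of 1, HNF4A being added (adjusted permutation p = 0.0288). The cause of these changes was not tested. Values near the floor and 5 animals a group limit what could be seen.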
